A study of Zea mays with 5 samples.

Results

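The left edge of a mapped stretch of maize chromosome 9 is described here, the 40 kb from the first cytosine of a deposited map to position 4341437 of build B73 RefGen_v3. Its members are the 1126 cytosines with at least 5 reads, of 2801 listed there and of 26750 cytosines with that depth in the whole map. The 40 kb were chosen from their CHH methylation in this same library, so the comparisons with the densely covered neighbouring 60 kb (from 4341438 to 4401437, 8872 cytosines) are a description, and no test was made of any of them. All values come from 1 library of Derivative 3-3 young leaves, digested with micrococcal nuclease, precipitated with an antiserum against CENH3 and treated with bisulfite. By the series title, Derivative 3-3 is maize carrying a de novo centromere, and plant age was not given in the labels. The 4 RNA libraries of the series (control and Derivative 3-3, from seedlings and from young leaves) were not analysed here. Without a replicate, a control or unprecipitated DNA, each interval below is a Wilson or, for a difference, a Newcombe 95% interval on reads. It covers counting error only, and it takes reads at different cytosines as independent, although 1 read spans several.

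CENH3 is the histone H3 variant that takes the place of H3 in active centromeres. Plants methylate cytosine in the contexts CG, CHG and CHH, where H is A, C or T. CG methylation is maintained by MET1-type enzymes and CHG methylation by chromomethylases, which copy it onto the new strand after replication. CHH sites have no cytosine opposite to copy from, and their methylation is set anew by the RNA-directed pathway or by chromomethylases. In maize, high CHH methylation is known mainly from short islands next to genes and transposons, and the interior of heterochromatin is usually low in it. After bisulfite treatment an unmethylated cytosine is read as T, so the methylation level is the share of reads with C.

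The sequences below show where the methylated CHH reads of the left edge lay. They were assembled from the map alone, which gives each listed cytosine, the base after it and its context, so n stands for a base that the map does not give. All are written 5′ to 3′ on the strand of the cytosines in capitals. In the first, chr9:4327756-4327901 on the reverse strand, capitals mark the 25 neighbouring CHH cytosines that each held at least 2 methylated reads. In the next 4 they mark CHH cytosines at 50% methylation or more, from chr9:4319240-4319301 (forward), chr9:4327334-4327394 (reverse), chr9:4328346-4328406 (forward) and chr9:4328502-4328563 (reverse). The last, chr9:4310213-4310273 (forward), is shown for contrast, and its capitals mark 9 CG cytosines with 0 methylated of 45 reads.
Run of CHH cytosines: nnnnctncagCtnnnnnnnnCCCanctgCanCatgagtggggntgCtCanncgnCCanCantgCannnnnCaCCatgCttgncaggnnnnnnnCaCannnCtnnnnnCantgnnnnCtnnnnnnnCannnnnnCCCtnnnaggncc
Fully methylated neighbours: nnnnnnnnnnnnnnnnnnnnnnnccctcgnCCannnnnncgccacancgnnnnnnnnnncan
CA cytosine at 100%: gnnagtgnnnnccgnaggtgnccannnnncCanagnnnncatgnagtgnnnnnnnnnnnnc
CT cytosine: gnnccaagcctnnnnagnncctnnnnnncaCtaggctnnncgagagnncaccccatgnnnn
Deepest neighbours: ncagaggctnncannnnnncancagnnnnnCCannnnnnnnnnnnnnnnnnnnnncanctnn
Unmethylated CG stretch: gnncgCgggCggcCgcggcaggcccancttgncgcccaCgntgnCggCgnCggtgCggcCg

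CHH methylation of the left edge was 5.61% (5.03 to 6.26, 301 methylated of 5365 reads at 782 cytosines), against 1.84% (1.71 to 1.97) at 4843 cytosines of the neighbouring stretch. The difference was 3.77 percentage points (3.17 to 4.43). CG and CHG methylation lay the other way. CG was 68.8% (66.0 to 71.4, 180 cytosines) against 92.5% (92.1 to 92.8), a difference of -23.7 percentage points (-26.5 to -21.0). CHG was 64.7% (61.9 to 67.4, 164 cytosines) against 73.8% (73.1 to 74.5), a difference of -9.13 percentage points (-12.0 to -6.32). CG exceeded CHG by 4.09 percentage points in the left edge (0.210 to 7.96) and by 18.7 in the neighbouring stretch (17.9 to 19.4).

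The 4 windows of 10 kb in the left edge differed widely among themselves. CHH stood at 2.48% in the outermost window, 3.92% from 4311438, 9.23% from 4321438 and 4.84% from 4331438. All 4 lay above the 6 windows of the neighbouring stretch, which ranged from 1.07% to 2.20% with a median of 1.87%. Without CHH cytosines at 50% or more, the window from 4311438 fell to 2.06%, inside the neighbour's range on the same terms (1.07% to 2.10%), while the other windows stood at 2.48%, 5.75% and 4.84%. The separation was small for the outermost window, whose interval (1.43 to 4.29) overlapped those of the neighbouring windows. CG stood at 16.3%, 74.4%, 86.8% and 84.7% in the same order, against 78.3% to 94.5% next door. Without the outermost window CG was 80.6%, which left a difference of -11.8 percentage points from the neighbour. CHG stood at 23.6%, 73.04%, 69.9% and 66.5%, against 69.1% to 77.4%, so 2 of the 4 windows lay within the range of the neighbour. At the border set by the rule, CHH was 5.80% in the last 5 kb inside (3.93 to 8.48, 65 cytosines) and 1.95% in the first 5 kb outside (1.18 to 3.19, 128 cytosines). In the nearest 1 kb on each side it was 3.31% inside (1.68 to 6.39, 40 cytosines) and 2.56% outside (1.10 to 5.86, 37 cytosines), with overlapping intervals.

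**Figure D1:**
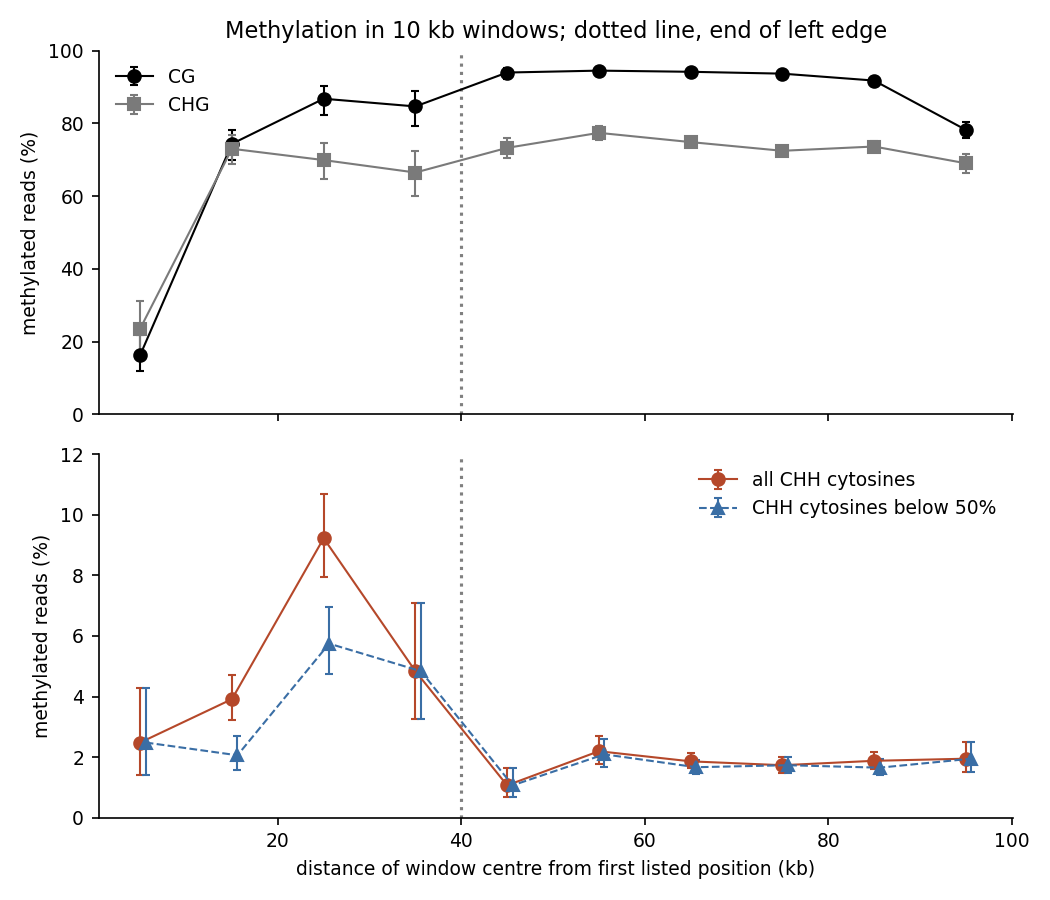
Methylation level (percent of reads, Wilson 95% intervals on reads) in 10 kb windows against the distance of the window centre from the first listed position, with the left edge to the left of the dotted line. CG and CHG are low in the outermost window, at 16.3% and 23.6%, and CHH is highest in the third window, at 9.23%, or 5.75% when cytosines at 50% or more are left out.

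By the base after the cytosine, the CHH difference was largest in percentage points at CA. CHH cytosines followed by A were methylated at 8.93% in the left edge (201 of 2251 reads, 320 cytosines) and at 2.81% in the neighbouring stretch, a difference of 6.12 percentage points (4.97 to 7.398). Those followed by C stood at 3.54% (206 cytosines) against 0.808%, a difference of 2.73 (1.87 to 3.84). Those followed by T stood at 2.94% (256 cytosines) against 1.98%, a difference of 0.959 (0.206 to 1.90). CA thus exceeded CC and CT combined by 5.72 percentage points inside the left edge (4.42 to 7.09), and by 1.47 in the neighbouring stretch (1.17 to 1.80). CA was the highest of these classes in each of the 4 windows, at 6.42%, 6.18%, 14.1% and 9.09%, and in the outermost window all 12 methylated CHH reads were at CA. CA made up 40.9% of the CHH cytosines of the left edge and 34.2% of those next door. Weighted to the left edge's mix of following bases, the neighbour's CHH level was 2.02%, so the mix moved it by little.

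Within CHG, CCG was the lowest trinucleotide in the left edge and in the neighbouring stretch. CAG was methylated at 71.8% (383 reads), CTG at 72.1% (480 reads) and CCG at 41.8% (275 reads, 42 cytosines), against 81.7%, 81.6% and 56.8% next door. CAG and CTG face each other on opposite strands, while a CCG faces a CG-containing sequence and has no CHG cytosine opposite. CAG and CTG differed by less than their counting intervals in both stretches. CCG lay 30.1 percentage points below CAG and CTG in the left edge (23.5 to 36.5) and 24.9 below them in the neighbouring stretch. CCG was not the lowest in every window. CCG stood at 0% in the outermost window (41 reads), 28.4% from 4311438 and 51.4% from 4321438, each below CAG and CTG of that window. From 4331438 it stood at 67.9% (81 reads), against 56.1% for CAG (41 reads) and 69.8% for CTG (96 reads), with overlapping intervals.

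**Figure D2:**
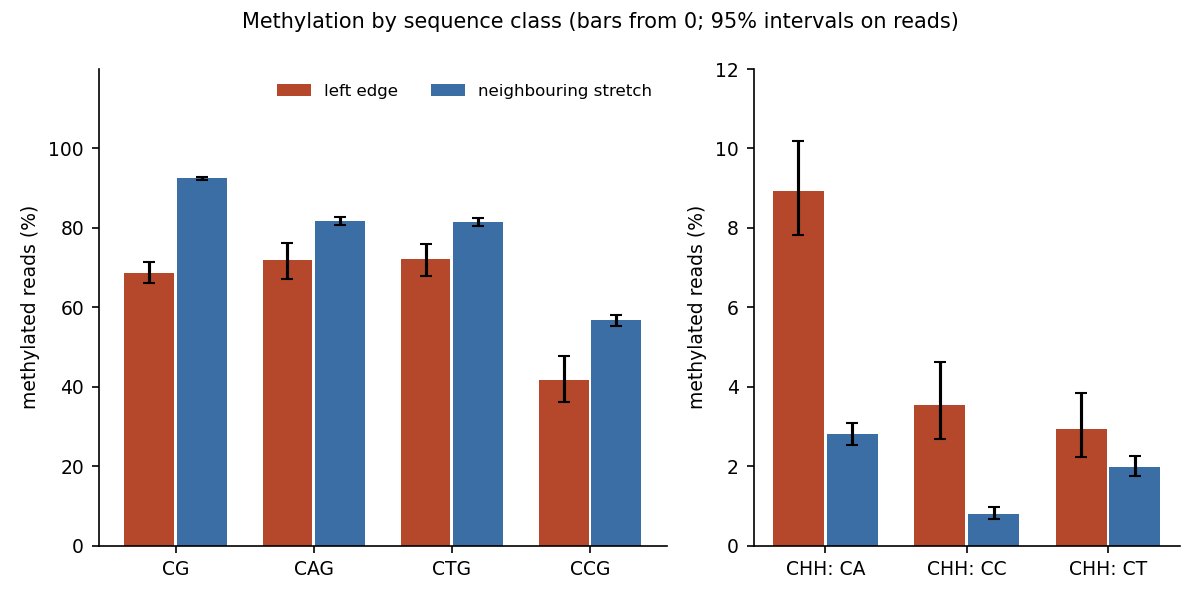
Methylation level (percent of reads, bars from 0 with Wilson 95% intervals on reads) by sequence class in the left edge and in the neighbouring stretch. The left panel shows lower CG, CAG, CTG and CCG levels in the left edge, and the right panel shows higher CHH levels there, 8.93% against 2.81% at CA.

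The left edge was thinly covered. The map lists 70.0 cytosines per kb there and 238 per kb in the neighbouring stretch, a ratio of 3.40, and cytosines with at least 5 reads numbered 28.2 and 148 per kb. Of the listed cytosines, 40.2% reached 5 reads, against 62.1%. Mean depth at these was 6.78 reads (SD 2.44 over cytosines, median 6) against 8.28 (SD 3.55, median 7), and 9.86% of them against 26.6% had 10 reads or more. Of 40 bins of 1 kb, 33 held a listed cytosine and 27 held at least 1 with 5 reads, while all 60 bins next door held both. Stretches of 1 kb or more without a listed cytosine numbered 9, with 14445 bp in all, the longest being the 3869 bp between 4303659 and 4307529, and the neighbouring stretch had 0. Listed cytosines per kb were 63.5, 107, 74.1 and 35.8 in the 4 windows. The contexts were also represented unequally, since CHH made up 69.4% of the members and 54.6% of the neighbour's cytosines.

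Over the left edge as a whole, CHH was higher at deeper cytosines and near the neighbour's level at those just outside the depth threshold. The further rise at 10 reads or more rested largely on the window from 4321438. The rise across the threshold of 5 reads remained without that window, but it was not seen in every window. At the 1046 CHH cytosines with 3 or 4 reads, CHH stood at 2.16% (1.74 to 2.69), against 1.97% in the neighbouring stretch (3295 cytosines), a difference of 0.195 percentage points (-0.310 to 0.775). At 5 to 9 reads it was 4.38% (697 cytosines) against 1.79%, and at 10 reads or more 10.5% (85 cytosines) against 1.90%. The neighbour stayed near 2% in every depth class. Weighted to the left edge's depths from 5 reads up, the neighbour's CHH level was 1.78%. In the window from 4321438 the levels were 2.06%, 5.76% and 17.8% in the classes of 3 or 4, 5 to 9 and 10 or more reads, and this window held 90 of the 113 methylated CHH reads at 10 reads or more. Without it the left edge stood at 2.20% (1.71 to 2.83), 3.81% (3.19 to 4.55) and 4.06% (2.72 to 6.02, 48 cytosines). Without the window from 4311438 the deepest class rose to 17.1% (14.2 to 20.5, 41 cytosines). From 4311438 the levels were 2.003%, 3.98% and 3.64%. In the outermost window CHH did not rise from 3 or 4 reads (1.82%, 257 cytosines) to 5 to 9 reads (1.78%, 75 cytosines). Its 3 cytosines with 10 reads or more had 4 methylated of 34 reads. From 4331438 the cytosines with 3 or 4 reads stood at 3.88% (2.32 to 6.40), close to 4.94% at 5 to 9 reads and above the neighbour's 1.97% (1.73 to 2.24), and 1 cytosine had 10 reads, none of them methylated. CG and CHG stood at 47.0% and 37.2% at left-edge cytosines with 3 or 4 reads, against 88.7% and 69.5% next door. Many of these shallow cytosines lie in stretches with little CG methylation, so depth and location are mixed here. From 4308438 to 4311437, 135 listed CG cytosines, 29 with at least 5 reads, had 7 methylated of 509 reads. From 4330438 to 4333437, 37 listed CG cytosines, 1 with at least 5 reads, had 0 of 127. Shallow levels without these stretches were not computed.

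**Figure D3:**
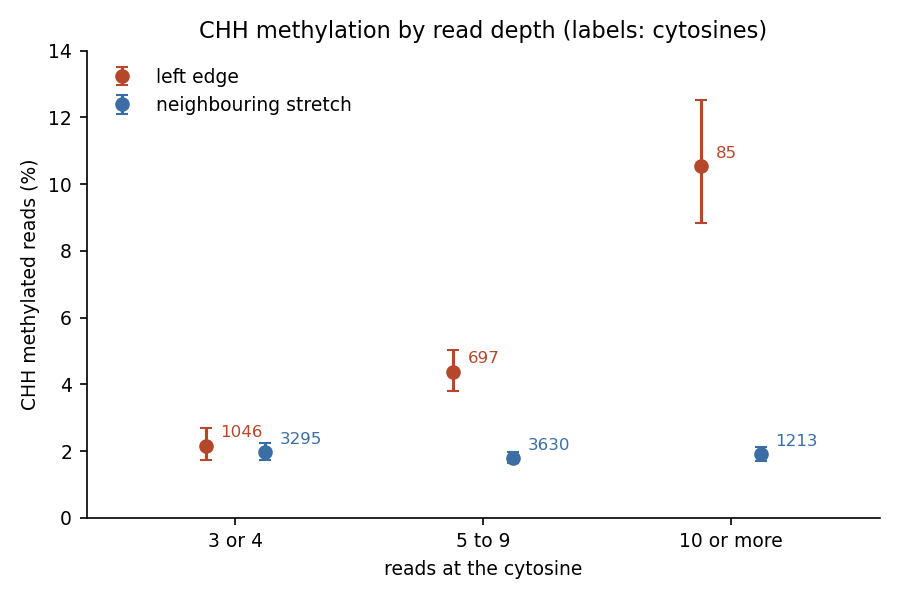
CHH methylation level (percent of reads, Wilson 95% intervals on reads) by the number of reads at the cytosine, with the number of cytosines beside each point. The stretches differ by 0.195 percentage points at 3 or 4 reads and by 8.64 at 10 reads or more, where the left edge has 85 cytosines. Without the window from 4321438 the left edge's deepest class is at 4.06% in place of 10.5%.

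Most CHH cytosines of the left edge were not methylated in any read. Of 782, 677 (86.6%) had 0 methylated reads, against 91.2% in the neighbouring stretch, and 19 (2.43%) were at 50% or more, against 10 of 4843 (0.206%). Over the whole map 0.434% of CHH cytosines were at 50% or more. Since the left edge was chosen for its CHH level, nothing is read from that excess. These 19 cytosines carried 116 of the 301 methylated CHH reads (38.5%), and without them CHH was 3.55% (3.08 to 4.08), against 1.72% for the neighbour on the same terms. Without them CA stood at 6.10% against 2.54% and CC at 1.60% against 0.808%, while CT stood at 1.85% against 1.89% (difference -0.0413, -0.645 to 0.756). Of the 19, 11 were followed by A, 4 by C and 4 by T, 8 lay on the forward and 11 on the reverse strand, and 7 were methylated in every read.

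The 19 high cytosines formed 10 groups when neighbours at most 200 bp apart were joined, 7 of them between 4311819 and 4319271 and 3 between 4327364 and 4328533. In the first set, adjacent cytosines at 4319270 and 4319271 were methylated in 6 of 6 reads each, and 4 cytosines from 4314098 to 4314281 in 19 of 22 reads together. At 4312221 all 5 reads were methylated. In the second set, 4327364 was methylated in 5 of 5 reads and 4328376 in 5 of 6. The deepest were the adjacent cytosines at 4328532 and 4328533, with 17 and 16 methylated of 22 reads. These 2 adjacent pairs lie in a CCA, as the sequences above show, and the left edge had 1 more adjacent pair, at 4314098 and 4314099 on the forward strand, methylated in 3 of 5 and 5 of 5 reads. In the outermost window and that from 4331438 no CHH cytosine with 5 reads reached 50%.

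Methylated CHH reads were concentrated in short stretches rather than spread evenly. Of 16 bins of 1 kb with at least 10 CHH cytosines, 4 were at 5% or more, against 3 of 59 in the neighbouring stretch and 6.77% of such bins over the whole map. The highest were 11.3% from 4327438 (104 of 924 reads), 10.5% from 4339438 (16 of 152) and 8.21% from 4313438 (27 of 329). The lowest were 0 of 105 reads in the outermost bin, 0 of 95 from 4309438 and 2 of 212 (0.943%) from 4316438. The bins from 4327438 and 4328438 together held 152 of the 301 methylated CHH reads (50.5%) on 28.9% of the CHH reads, and the remaining left edge stood at 3.90% (3.33 to 4.57). From 4327438 cytosines with 3 or 4 reads stood at 2.14% (82 cytosines) beside 11.3% at the deeper ones, and from 4328438 at 0.917% (64 cytosines) beside 7.69%. The bin from 4339438 lacked this gap, at 9.30% with 3 or 4 reads (13 cytosines) beside 10.5%.

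**Figure D4:**
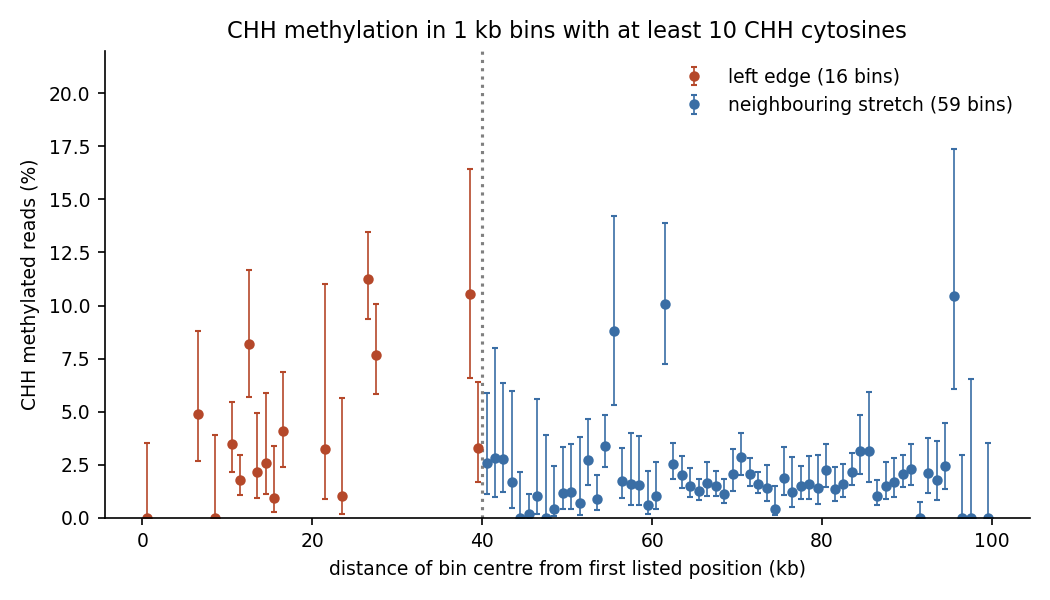
CHH methylation level (percent of reads, Wilson 95% intervals on reads) in 1 kb bins with at least 10 CHH cytosines, against distance from the first listed position. In the left edge 4 of 16 bins are at 5% or more and in the neighbouring stretch 3 of 59, and bins of the left edge range from 0 to 11.3%.

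The strands differed in CHH level, mainly in one window. Over the left edge CHH was 3.38% on the forward strand (2.75 to 4.14, 407 cytosines) and 7.76% on the reverse strand (6.81 to 8.82, 375 cytosines), while the neighbour stood at 1.79% and 1.87%. The window from 4321438 held 139 of the 212 methylated reads of the reverse strand, at 14.8% against 2.81% on the forward strand. From 4331438 the reverse strand stood at 6.90% (4.15 to 11.2, 30 cytosines) and the forward strand at 3.41% (1.86 to 6.17, 50 cytosines), with overlapping intervals. In the outermost window the forward and reverse strands stood at 2.79% and 2.24%, and from 4311438 at 3.83% and 4.003%. Between 4327364 and 4328533, the reverse strand had 128 methylated of 579 CHH reads (22.1%) and the forward strand 16 of 470 (3.40%). Both bounds are themselves high cytosines of the reverse strand. Of the 128, 85 lay in the run described next, and 17 and 16 at the adjacent cytosines 4328532 and 4328533. With 3 or 4 reads the reverse strand there had 1 methylated of 121 reads (0.826%) and the forward strand 8 of 243 (3.29%), with overlapping intervals.

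Within that stretch lay the run of 25 CHH cytosines printed first above. Along 126 bp, from 4327766 to 4327891, every listed CHH cytosine of the reverse strand held methylated reads, 85 of 224 in all (37.9%). The number of methylated reads was 2 at 11 of the cytosines and 4 at another 11, and it was 6, 6 and 7 at the remaining 3, which lie at 4327776, 4327846 and 4327854. Total depth ran from 5 to 11 reads. The 12 listed forward-strand CHH cytosines within the same 126 bp had 0 methylated of 46 reads, which allows a level of up to 6.52%. Most of these 12 had 3 reads, below the depth of the members, and the others had 5. That limit takes the reads as independent, although 1 read spans several of these cytosines, so the true limit is wider. Runs of at least 5 listed CHH cytosines of a strand, at most 50 bp apart and all with a methylated read, numbered 1 in the left edge, 6 in the neighbouring stretch and 22 in the map. This run was the longest, the longest next door being of 8. Without the runs, CHH was 4.20% in the left edge (3.69 to 4.78) and 1.76% in the neighbouring stretch.

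**Figure D5:**
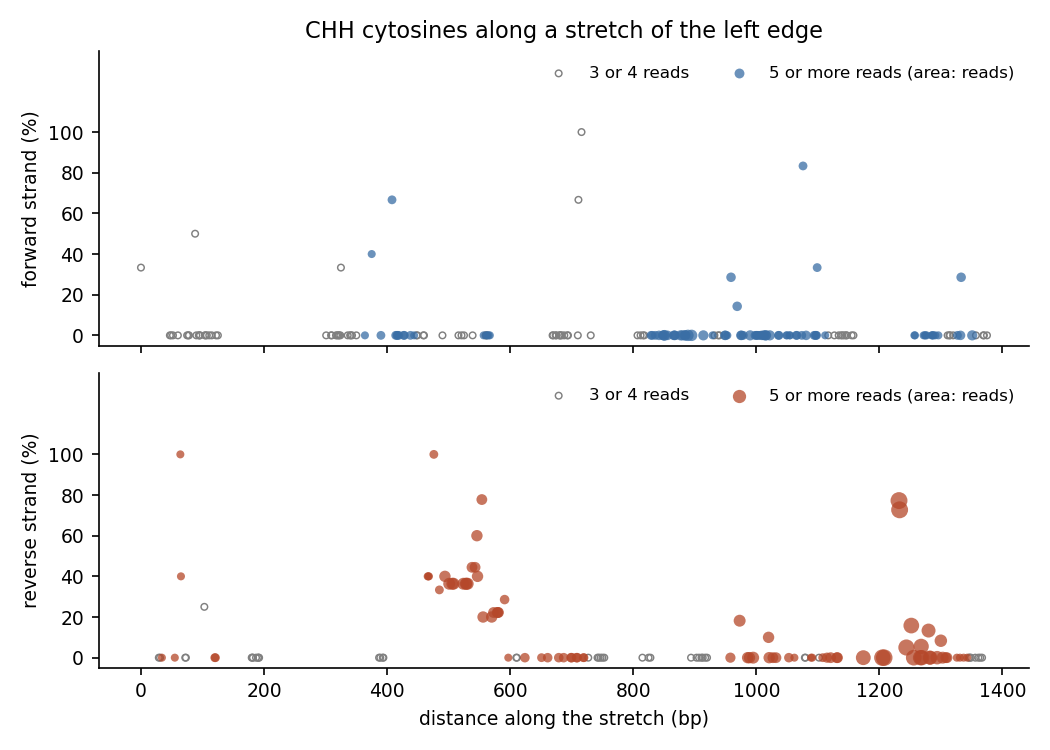
Methylation level (percent) of each CHH cytosine along a stretch of the left edge, by strand. Filled points have 5 or more reads with an area that grows with depth, and open points have 3 or 4. On the reverse strand a run of 25 neighbouring cytosines lies between 20% and 100%, while the forward strand across it is at 0, mostly at open points.

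Clustering of methylated CHH reads was also measured with this run left out. Runs were defined as neighbouring cytosines that all hold a methylated read. Leaving runs out therefore tends to lower the share after a methylated cytosine and the levels near high cytosines. Nothing is read from that fall. Of CHH cytosines whose preceding CHH cytosine on the same strand, at most 50 bp away, held a methylated read, 41.2% held one too, against 9.87% after a cytosine without. In the neighbouring stretch these shares were 17.0% and 8%. With the cytosines of runs left out, a choice made after the data were seen, the first share was 22.2% (16 of 72) in the left edge and 13.3% (52 of 390) next door. Within 50 bp of a high CHH cytosine, the other CHH cytosines stood at 7.50% (164 cytosines) with the run and at 2.72% without it (1.90 to 3.87, 142 cytosines), and farther away at 2.28% (1.86 to 2.79, 599 cytosines). On the strand of the high cytosine the nearby level was 8.33% with the run and 2.48% without it (1.63 to 3.76, 109 cytosines), beside 3.27% on the opposite strand (1.66 to 6.31, 37 cytosines). Without the run all of these intervals overlapped. The counts themselves differed in pattern, since among the 105 members with a methylated CHH read 16 (15.2%) had exactly 1 and 55 (52.4%) exactly 2, against 50% and 38.7% of 426 in the neighbouring stretch. An even count was found at 72.4% of them, against 42.7%. The run holds 25 of these 105. Among them are 11 of the 55 with exactly 2 methylated reads and 11 of the 16 with exactly 4, and none with exactly 1. Most cytosines with exactly 2 thus lay outside the run. The shares of counts were not computed without it. The sources used here do not say whether overlapping mates or duplicate reads were counted.

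CG cytosines of the left edge fell mainly into a methylated and an unmethylated class. Of 180 CG cytosines, 100 (55.6%) were at 80% or more, 43 (23.9%) were at 20% or less, and 37 had a level in between, against 87.4% and 1.84% of 2123 in the neighbouring stretch for the highest and lowest class. Of these 180, 41 had 0 methylated reads, and 29 of those lay together. Between 4308438 and 4311437, the 29 CG cytosines had 0 methylated of 147 reads, 16 CHG cytosines 0 of 80 and 22 CHH cytosines 0 of 110, which allow levels of up to 2.04%, 3.75% and 2.73%. With the cytosines of 3 or 4 reads added, 135 CG cytosines had 7 methylated of 509 reads (1.38%) and 106 CHG cytosines 0 of 393. At that lower depth a second such stretch lay between 4330438 and 4333437, where 37 CG cytosines, 1 of them with at least 5 reads, had 0 methylated of 127 reads, which allows a level of up to 2.36%. The last 3 kb of the neighbouring stretch, from 4398438, likewise had 0 methylated of 186 reads at 45 CG cytosines. The CG-rich letters of the last sequence above come from the stretch between 4308438 and 4311437. Its bin from 4309438 was also the lowest by CG in the left edge, at 0 of 121 reads. The next lowest were 61.8% from 4307438 and 66.5% from 4312438, and the highest were 100% from 4339438 (69 of 69 reads), 87.9% from 4327438 and 85.0% from 4317438. Without the 3 kb from 4308438 to 4311437, CG was 79.1% and CHG 69.6%, with differences of -13.4 and -4.24 percentage points from the neighbour, and CHH was 5.73%.

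The bins highest by CHH had CG methylation, but so did most others. Of 11 bins of the left edge with at least 5 CG cytosines, 1 was at 5% CG or less. The bin from 4316438, among the lowest by CHH at 0.943%, had CG at 81.25% (64.7 to 91.1, 6 cytosines). CG stood at 87.9% from 4327438, at 100% from 4339438 and at 73.7% from 4313438 (61.02 to 83.4, 9 cytosines), against a median of 80.6% over bins of the left edge with at least 5 CG cytosines, and the bin without CG methylation had no methylated CHH read at 5 reads or more. Within 50 bp of a high CHH cytosine CG stood at 78.0% (20 cytosines) and CHG at 72.4% (17 cytosines). Farther away they stood at 67.5% (160 cytosines) and 63.4% (147 cytosines), with overlapping intervals. The farther cytosines include the unmethylated stretch from 4308438. Within 50 bp of a high CHH cytosine next door, CG and CHG stood at 96.7% and 77.3%. On opposite strands of the same site, 10 of 19 CG dyads with 5 reads on both strands were at 80% or more on both, 3 at 20% or less on both and 0 opposite. Of 9 CHG dyads, 4 were high on both strands and 0 opposite. The neighbouring stretch had 519 and 297 such dyads, with 76.9% and 53.2% high on both strands.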

How the data were processed

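Per the labels' protocols, chromatin of young leaves was digested with micrococcal nuclease and precipitated with rabbit anti-CENH3 serum, and the DNA was bisulfite-treated and sequenced. Per the file headers, the authors' table gives methylated and total read counts for each cytosine, without normalization, and the level as a fraction. The fraction equalled methylated over total reads at each cytosine, and the table lists cytosines with 3 to 36 reads. Per the submitters' processing notes, the tools were CASAVA and BWA 0.6.1 and the build was B73 RefGen_v3, without a stated role. How methylation was called, duplicate removal, treatment of repeated sequence, conversion rate and whether positions count from 0 or 1 are not stated by any source used here. Differences of the plant from the reference were not analysed here.

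Levels were pooled over reads at cytosines with at least 5 reads, in windows of 10 kb and bins of 1 kb counted from the first listed position. Bins were named as the 3 highest and 3 lowest by CHH (at least 10 CHH cytosines) and by CG (at least 5 CG cytosines), and every CHH cytosine at 50% or more was counted. The limit that 0 methylated reads allow is 3 reads of the total. The stretch, its classes and the named sites were chosen with earlier results of these data known, and the runs of CHH cytosines, the levels near high cytosines, the counts of 1 or 2 reads, the CG-poor 3 kb and the split by depth after the values were seen. The computation of the intervals was checked on simulated data with known levels. Reads were drawn there independently at each cytosine, as the intervals assume. That check therefore does not show how the intervals perform for reads that span several cytosines. No gene annotation of this build was used here. Python 3.11.15, numpy 2.4.6, pandas 2.3.3 and matplotlib 3.10.9 were used.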

Additional observations from a re-analysis of the deposited data

How the results depend on the processing

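With 1 library there was no replicate to leave out, and no paired analysis was possible because the methylation values come from a single library. Values are levels of the left edge, or differences from the neighbouring stretch in percentage points. Of 118 alternative values, 43 stayed within the counting interval of the reported one (or, for density, within 1.5 times) and 74 moved outside it, mostly without changing sign. The exception was CHG with at least 10 reads, which stood 5.89 above the neighbour on 17 cytosines, where it was below it otherwise. Its interval (-0.0151 to 10.8) included no difference. That setting uses fewer cytosines, and the cause was otherwise not tested.

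With all listed cytosines CG was 57.7%, CHG 51.8% and CHH 4.23%, with differences of -34.1, -21.2 and 2.36. With at least 10 reads they were 83.2%, 79.8% and 10.5%, with differences of -10.5 for CG and 8.64 for CHH. Using 3 or 4 reads alone gave 47.0%, 37.2% and 2.16%, with differences of -41.7, -32.3 and 0.195. Many of the CG and CHG cytosines of that setting lie in the stretches with little CG methylation. Unweighted means were 66.0%, 60.7% and 4.95%, with differences of -12.9 for CHG and 3.15 for CHH. The forward strand gave 69.3% for CHG and 3.38% for CHH (differences -5.03 and 1.59), and the reverse strand 60.3% and 7.76% (-13.0 and 5.89). Without the outermost 10 kb CG was 80.6% and CHG 70.6% (-11.8 and -3.18). Without the window from 4311438 CG was 65.4%, CHG 58.997% and CHH 7.24% (-27.1, -14.8 and 5.40). Without that from 4321438 CG was 62.6% and CHH 3.85% (-29.9 and 2.01), and without that from 4331438 CG was 65.1% (-27.3). Without the 3 kb of lowest CG, CG was 79.1% and CHG 69.6% (-13.4 and -4.24). Without CHH cytosines at 50% or more CHH was 3.55% (1.83), and without runs 4.20% (2.44). Against all of the map beyond the left edge, CG differed by -18.1 and CHG by -4.24.

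The difference of CCG from CAG and CTG was -45.9 with at least 10 reads (3 CCG cytosines), -20.0 and -36.9 on the forward and reverse strand, -16.2 without the window from 4311438 and -42.2 without that from 4331438. CA exceeded the other CHH classes by 4.36 with all listed cytosines, by 4.31 and 7.09 on the forward and reverse strand, and by 7.57 without the window from 4311438. Mean depth differed from the neighbour by -1.68 reads over all listed cytosines and by -0.568 over those with at least 10. The density ratio to the neighbour was 0.190 with at least 5 reads and 0.0706 with at least 10, against 0.294 for all listed. The leave-out of the low 3 kb, of runs, of all but 3 or 4 reads and of windows from the depth classes was chosen after the data were seen. Depth limits single cytosines, most of which have under 10 reads here.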

Other observations

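The opposite end of the map did not share the higher CHH level. In its last 40 kb, positions 4547777 to 4587776, CHH stood at 1.996% (1.86 to 2.14, 4486 cytosines), with 3.22% at CA, 0.799% at CC and 1.59% at CT. CG stood there at 86.9% and CHG at 70.0%, and mean depth at CHH cytosines was 8.49 reads. These 40 kb were chosen after the values of the left edge were known, and the difference was not tested.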
